A study of Mus musculus with 6 samples.

Results

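Interferon-stimulated genes are the transcripts that cells switch on after type I, type II or type III interferon binds its receptor. Type I interferon acts through ISGF3, a complex that contains STAT2 and IRF9 and binds a promoter motif known as the interferon-stimulated response element, whereas interferon gamma acts in part through IRF1. The products block viral RNA and its translation, tag proteins with ISG15, and amplify or dampen the signal, and neutrophils and their precursors carry many of them at rest. A list of 42 such genes was examined in splenic CD11b+Gr-1high cells. In tumor-bearing mice these are the granulocytic fraction of myeloid-derived suppressor cells. The paper reports that CD11b+Gr-1+ cells of control mice did not significantly suppress T cells, so the control cells are not named suppressor cells here. The members were found by the gene symbol that the array annotation gives each probe. Of the 42 genes, 41 had at least 1 probe, out of 19057 genes on the array, and Ifi44 had none by symbol or Entrez number. The 41 genes were covered by 89 probes, of which 56 were detected on at least 2 arrays at a detection p under 0.05.

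All mice were female BALB/c, 6 to 8 weeks of age. The 4T1-TB group carried tumors from 50000 implanted cells of the 4T1 mammary carcinoma line, with volumes over 1000 mm3. The G-CSF group received 10 µg per day of recombinant G-CSF, the growth factor of the granulocyte lineage, for 5 days, and the WT group consisted of mice without tumor. Cells were sorted from spleen to over 98% purity, and RNA was hybridized to 2 Illumina arrays per group, each from an independent experiment. The comparisons ask how cells of tumor-bearing mice and of G-CSF-treated mice differ from those of control mice, and from each other. Both comparisons with WT share the same WT arrays.

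Values are normalized log2 intensities, and each gene is represented by its brightest probe over the 6 arrays unless a probe is named, so that a gene called undetected is one whose brightest probe was. Of 14 measured granulocyte markers 13 were detected, Ly6g had no probe here, and the calls went both ways. In 4T1-TB cells 3 were higher than in WT (Ltf, Il1r2 and Cebpe) and 3 lower (Itgam, Csf3r and Ngp), and in G-CSF cells 3 were lower (Itgam, S100a8 and Csf3r). Itgam, which encodes CD11b, was not detected on any 4T1-TB or G-CSF array but on both WT arrays. Csf3r, the G-CSF receptor, changed by -3.52 in 4T1-TB cells and -2.83 in G-CSF cells. The summed linear level of 7 erythroid genes reached 25742 and 935 for 4T1-TB, 11944 and 1295 for G-CSF, and 1994 and 1773 for WT. The first array of 4T1-TB and the first of G-CSF thus stood apart, and they also had the highest B cell sums (966 in 4T1-TB and 1093 in G-CSF, against 856 to 866 on the other arrays). The sum of 9 T cell genes was higher on all 4 arrays of 4T1-TB (2836 and 3665) and G-CSF mice (2929 and 2834) than in WT cells (1780 and 2014), with no T cell gene called. Of 13 macrophage markers 3 fell in both groups against WT (C1qb, C1qc and Vcam1), with summed levels of 8579 to 8687 in 4T1-TB cells, 10218 to 10267 in G-CSF cells and 8550 to 9302 in WT cells. Of 10 monocyte markers 1 fell (Treml4), with sums of 1316 to 1421 in 4T1-TB cells, 1363 to 1486 in G-CSF cells and 2072 to 2073 in WT cells, and C1qc was not detected in either group. The part of these cells in the results below was not tested. In bulk cells, fewer cells of a type and less RNA per cell cannot be told apart.

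The promoters of several members hold the response element, and the stretches below show copies before the gene start for some of them. The core searched was GAAA, then 2 bases of any kind, then GAAA, on both strands, in a window from 250 bases before to 50 after each RefSeq gene start of build GRCm38.p6. It was present in 3.44% of 32851 windows, and in at least 1 window of 3.99% of 27025 genes. Of the 42 members 31 had a window, and 16 of them held the core. The motif TTCNNNGAA, the core of the gamma-activated site, was present in 8.3% of windows and in 9 of the 31 members. Its share of genes was not computed, and a gene with several windows has more chances to hold it. Some windows of the response element hold overlapping copies, as in Isg15. In the sequences, capitals mark the core in either orientation and each is written on the strand of its gene. A match is a description and not a measured binding site.
Ifit3, chr19:34583358-34583431, plus strand: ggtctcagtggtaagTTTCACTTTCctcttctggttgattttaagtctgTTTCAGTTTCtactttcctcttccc
Isg15, chr4:156200860-156200911, minus strand: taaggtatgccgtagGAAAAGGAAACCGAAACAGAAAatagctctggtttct
Oas3, chr5:120777710-120777749, minus strand: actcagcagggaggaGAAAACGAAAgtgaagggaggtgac
Oas1g, chr5:120887614-120887646, minus strand: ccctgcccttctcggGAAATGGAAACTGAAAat
Rsad2, chr12:26456548-26456587, minus strand: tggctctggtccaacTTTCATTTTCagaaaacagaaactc
Gbp2, chr3:142620589-142620628, plus strand: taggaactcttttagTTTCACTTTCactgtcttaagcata
Igtp, chr11:58199507-58199546, plus strand: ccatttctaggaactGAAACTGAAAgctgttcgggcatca
The windows of Irf9, Irf7, Irf1, Dtx3l, Ifi35 and Oasl2 held no copy of the core. Those of Oas2, Usp18 and Dhx58 had no entry in the promoter table. Eif2ak2 held the core at +18, after the gene start, and such copies are not printed.

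The list did not move as a block. In 4T1-TB cells against WT, 9 of 41 genes passed an adjusted p of 0.05 in limma, 6 lower (Ifit3, Isg15, Oas3, Dtx3l, Ifi35 and Irf9) and 3 higher (Eif2ak2, Oas2 and Oasl2). Of all 19057 genes, 3.17% were called lower and 5.41% higher in that comparison. In G-CSF cells against WT, 7 of 41 passed, 5 lower (Ifit3, Isg15, Oas3, Dtx3l and Irf9) and 2 higher (Eif2ak2 and Gbp2), against 2.85% of all genes lower and 4.12% higher. Among the 7344 genes whose probe was detected, 8.22% were called lower and 14% higher in 4T1-TB cells, and 7.39% lower and 10.7% higher in G-CSF cells, and the called members all belonged to the 32 detected members. A change of 2-fold or more together with an unadjusted p below 0.01 marked 5 members lower and 2 higher in 4T1-TB cells (2.35% and 3.39% of all genes), and 4 lower and 1 higher in G-CSF cells (2.02% and 2.61%). With an array left out, its group keeps 1 array and adds nothing to the spread that limma estimates. Such calls rest on the spread of the other groups. Without either 4T1-TB array or either WT array, the adjusted test called 2 or 3 members lower and 1 higher in 4T1-TB cells, while 1.21% to 1.69% of all genes were lower and 0.981% to 1.5% higher. Without either G-CSF array it called 12 lower and 5 higher there, beside 6.03% and 11.9% of all genes. In G-CSF cells 1 member was lower without either WT array (1.19% to 1.25% of all genes) and 11 without the second G-CSF array (5.92%). There 1 was higher without either 4T1-TB array (2.38% of all genes) or either WT array (0.871% to 0.924%), and 4 were higher without the first G-CSF array (6.84%) or the second (11.8%).

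The median log2 change of the 41 measured members was -0.08 in 4T1-TB cells and -0.12 in G-CSF cells, beside 0.01 in each comparison over all genes. Over the 32 detected members it was -0.32 in 4T1-TB cells and -0.22 in G-CSF cells, beside 0.11 in each over all detected genes, a description only, since a gene could count as detected through the group where it was high. With a centring on array medians in place of quantile normalization, these medians were 0.12 in 4T1-TB cells and 0.26 in G-CSF cells, beside 0.24 and 0.30 for the same comparisons over all detected genes, and no member passed the test in either comparison, Irf9 changing sign.

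**Figure D1:**
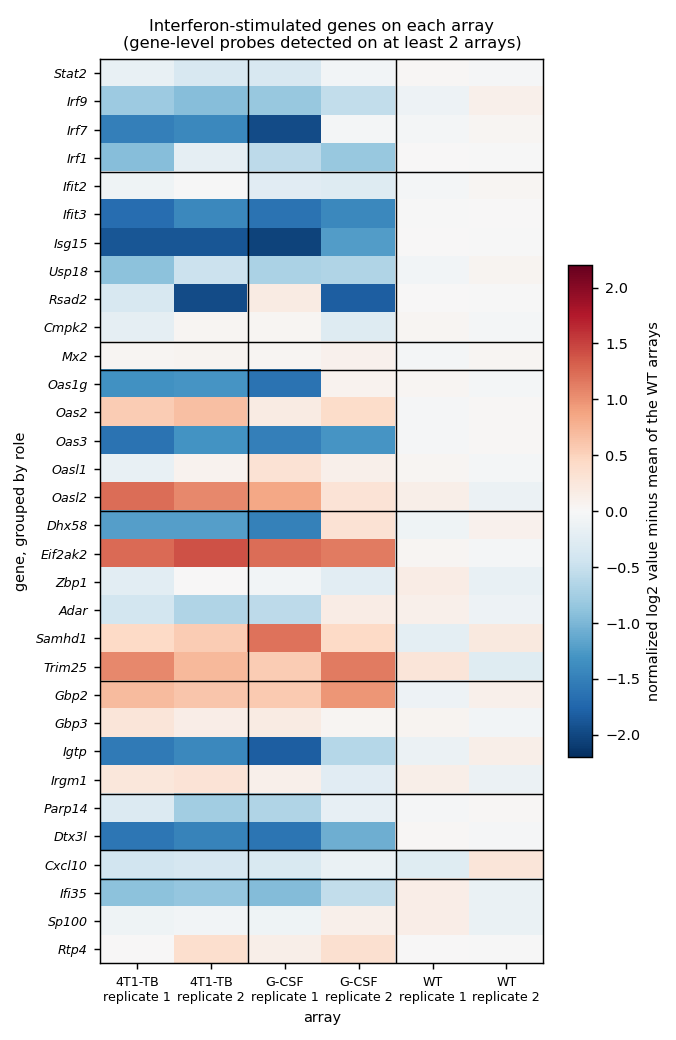
Normalized log2 value of each of the 32 detected interferon-stimulated genes (rows, grouped by role) minus the mean of the WT arrays, on each of the 6 arrays (columns). Blue rows such as Ifit3, Isg15, Oas3 and Dtx3l lie below WT on all 4 arrays of 4T1-TB and G-CSF mice, Eif2ak2 lies above it on all 4, and Irf7, Oas1g and Dhx58 are low on 3 of them only.

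Among the transcription factors, Irf9, the DNA-binding subunit of ISGF3, fell in both groups. It read 8.17 and 8.04 in 4T1-TB cells and 8.14 and 8.43 in G-CSF cells, against 8.86 and 9.09 in WT cells. The groups did not overlap with WT. The log2 change was -0.87 ± 0.13 (SE) in 4T1-TB cells and -0.69 ± 0.13 in G-CSF cells (limma adjusted p = 0.0192 in 4T1-TB and 0.0446 in G-CSF cells), while under centring on array medians the sign turned, to 0.14 in 4T1-TB cells and 0.48 in G-CSF cells. Without either 4T1-TB or either WT array neither passed (adjusted p up to 0.147 in 4T1-TB and 0.263 in G-CSF cells), and with the replicate number as a block the G-CSF call was lost (adjusted p = 0.0592). A second Irf9 probe changed by -1.21 in 4T1-TB cells and -1.10 in G-CSF cells (limma adjusted p = 0.015 in 4T1-TB and 0.0223 in G-CSF cells), kept its direction under that centring at -0.59 in 4T1-TB cells and -0.46 in G-CSF cells, and lost both calls without either 4T1-TB array or the second WT array (adjusted p up to 0.121 in 4T1-TB and 0.107 in G-CSF cells). Stat2, another subunit of ISGF3, read 7.09 and 6.90 in 4T1-TB cells and 6.90 and 7.19 in G-CSF cells, against 7.28 and 7.23 in WT cells. Its changes of -0.26 in 4T1-TB cells and -0.21 in G-CSF cells did not pass the test (limma adjusted p = 0.415 in 4T1-TB and 0.559 in G-CSF cells).

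Irf7, which amplifies type I interferon production, separated the 2 arrays of G-CSF mice. It read 7.52 and 7.61 in 4T1-TB cells and 7.06 and 8.99 in G-CSF cells, against 8.99 and 9.07 in WT cells. The second G-CSF array lay at the WT level and the first lay below both 4T1-TB arrays. Neither change was called, at -1.47 ± 0.58 in 4T1-TB cells and -1.01 ± 0.58 in G-CSF cells (SE, limma adjusted p = 0.342 in 4T1-TB and 0.589 in G-CSF cells). Without the second G-CSF array the G-CSF change was -1.97 and without the first it was -0.04, each from 1 G-CSF array that gives no spread. The 4T1-TB change was called without either G-CSF array (limma adjusted p = 4.52e-05), and stayed between -1.51 and -1.43 whichever array was left out.

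Irf1, an interferon-gamma target that activates further promoters, gave different answers by probe. Its brightest probe read 10.39 and 11.12 in 4T1-TB cells and 10.74 and 10.48 in G-CSF cells, against 11.33 and 11.31 in WT cells. The changes of that probe, -0.56 in 4T1-TB cells and -0.71 in G-CSF cells, were not called (limma adjusted p = 0.383 in 4T1-TB and 0.264 in G-CSF cells). The probe ILMN_2649068 read 7.15 and 7.10 in 4T1-TB cells and 7.09 and 7.38 in G-CSF cells, against 9.74 and 9.71 in WT cells. This was a change of -2.60 ± 0.10 in 4T1-TB cells and -2.49 ± 0.10 in G-CSF cells (SE, limma adjusted p = 0.000534 in 4T1-TB and 0.000593 in G-CSF cells), the steepest fall of any member probe together with its neighbour ILMN_2649067, at -2.71 in 4T1-TB cells and -2.52 in G-CSF cells. Another probe, ILMN_2599782, read 8.85 and 9.18 in 4T1-TB cells and 7.85 and 11.26 in G-CSF cells, against 11.02 and 11.16 in WT cells, so that the second G-CSF array was again at the WT level. The calls of ILMN_2649067 and ILMN_2649068 held without any one array. Probe sequences were not used here, and whether the probes read different transcripts of Irf1 was not tested.

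Of the 8 effectors of the IFIT and ISG15 systems, Ifit3 and Isg15 fell in both groups and none rose. Ifit3, part of the complex that binds viral RNA lacking a host cap, read 7.77 and 8.03 in 4T1-TB cells and 7.82 and 8.03 in G-CSF cells, against 9.44 and 9.45 in WT cells. The log2 change was -1.55 ± 0.11 in 4T1-TB cells and -1.52 ± 0.11 in G-CSF cells (SE, limma adjusted p = 0.00211 in 4T1-TB and 0.00231 in G-CSF cells). It was nearly equal in both groups and remained a call without any one array, although a close copy of the gene, Ifit3b, could share the probe. Isg15, the ubiquitin-like modifier, read 6.99 and 7.00 in 4T1-TB cells and 6.83 and 7.64 in G-CSF cells, against 8.87 on both WT arrays. Since neither 4T1-TB array detected it, Isg15 stood at least 3.55-fold lower in 4T1-TB cells (limma adjusted p = 0.014), and the G-CSF change was -1.64 ± 0.25 (SE, limma adjusted p = 0.0237). Both Isg15 calls were lost when either 4T1-TB array or either WT array was left out, with adjusted p up to 0.123 in 4T1-TB and 0.179. in G-CSF cells

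Usp18, the protease that removes ISG15 and damps the type I receptor, read 8.30 and 8.74 in 4T1-TB cells and 8.52 and 8.54 in G-CSF cells, against 9.16 and 9.27 in WT cells. The brightest probe just missed the threshold, with -0.69 in 4T1-TB cells and -0.68 in G-CSF cells (limma adjusted p = 0.0617 in 4T1-TB and 0.0723 in G-CSF cells). A dimmer Usp18 probe, not detected in either group but detected on both WT arrays, stood at least 1.28-fold lower in 4T1-TB cells and at least 1.29-fold lower in G-CSF cells (limma adjusted p = 0.01 in 4T1-TB and 0.0077 in G-CSF cells). Its 4T1-TB call was lost without either 4T1-TB or either WT array and its G-CSF call without either WT array (adjusted p up to 0.0875 in 4T1-TB and 0.075 in G-CSF cells). Rsad2, which encodes viperin, varied most between replicates. It read 10.77 and 9.15 in 4T1-TB cells and 11.30 and 9.32 in G-CSF cells, against 11.13 and 11.12 in WT cells. The low arrays were the second of each group, and the changes of -1.16 in 4T1-TB cells and -0.81 in G-CSF cells had an SE of 0.77 (limma adjusted p = 0.645 in 4T1-TB and 0.778 in G-CSF cells). Ifit1 and Bst2 were detected on no array, and Ifit2 and Cmpk2 were detected on all 6 without a call.

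The oligoadenylate synthetases make the short RNA signal that activates RNase L, and members of the family moved both ways. Oas3 read 6.96 and 7.28 in 4T1-TB cells and 7.08 and 7.29 in G-CSF cells, against 8.57 and 8.61 in WT cells. It changed by -1.47 ± 0.12 in 4T1-TB cells and -1.41 ± 0.12 in G-CSF cells (SE, limma adjusted p = 0.00354 in 4T1-TB and 0.00427 in G-CSF cells). The fall in 4T1-TB cells held without any one array, and that in G-CSF cells did not without either WT array (adjusted p up to 0.0555). Oas2 moved the other way, with 10.70 and 10.81 in 4T1-TB cells and 10.32 and 10.54 in G-CSF cells, against 10.11 and 10.17 in WT cells. The rise was 0.61 ± 0.09 in 4T1-TB cells (SE, limma adjusted p = 0.0197), whereas 0.29 ± 0.09 in G-CSF cells was not called (limma adjusted p = 0.211). Oasl2, an OAS-like protein, read 8.65 and 8.47 in 4T1-TB cells and 8.27 and 7.73 in G-CSF cells, against 7.56 and 7.28 in WT cells. It rose by 1.14 ± 0.19 in 4T1-TB cells (SE, limma adjusted p = 0.0322), and 0.58 in G-CSF cells was not called (limma adjusted p = 0.266). A dimmer Oasl2 probe, ILMN_2599154, detected on 3 arrays, stood at -0.04 in 4T1-TB cells and 0.02 in G-CSF cells, without a call. Leaving out either 4T1-TB or either WT array ended the calls of Oas2 and Oasl2 in 4T1-TB cells, with adjusted p up to 0.149 for Oas2 and 0.223 for Oasl2.

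**Figure D2:**
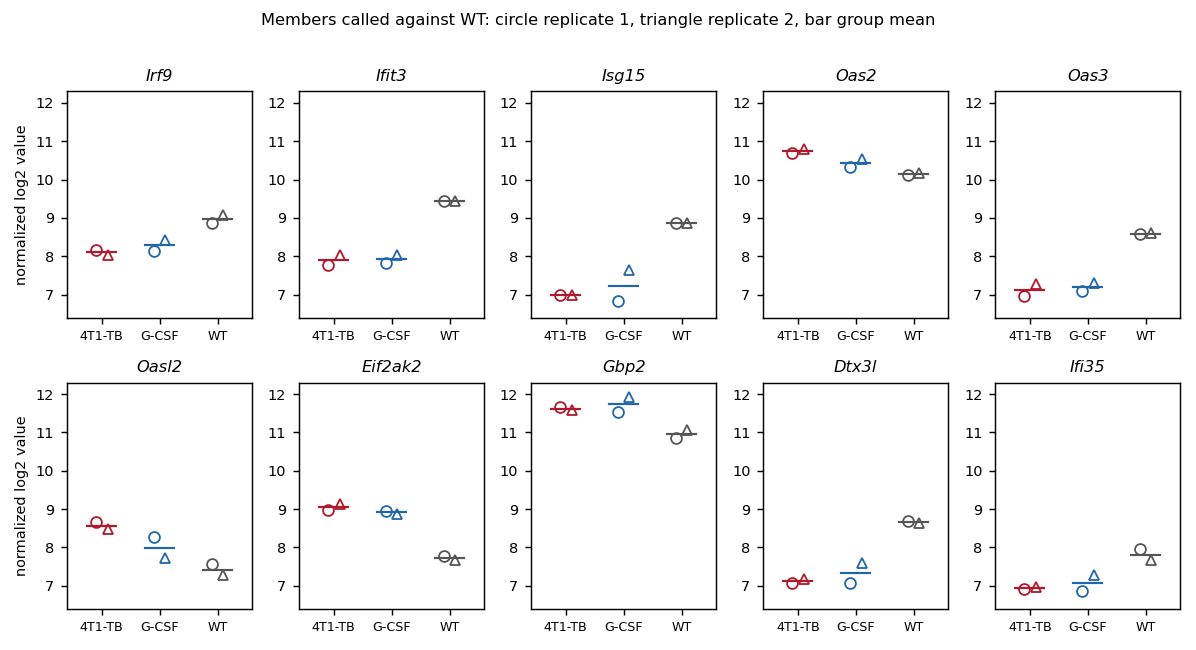
Normalized log2 value of the 10 members called in 4T1-TB or G-CSF cells against WT, per array (circle replicate 1, triangle replicate 2) with the group mean as a bar. In Ifit3 and Oas3 both arrays of 4T1-TB and of G-CSF lie well below both WT arrays, in Eif2ak2 all 4 lie above them, and Isg15 shows the wider spread of the G-CSF pair, at 6.83 and 7.64.

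Oas1g again showed the second G-CSF array at the WT level on its brightest probe, with 7.24 and 7.27 in 4T1-TB cells and 6.95 and 8.65 in G-CSF cells, against 8.62 and 8.52 in WT cells. That probe did not pass, at -1.32 in 4T1-TB cells and -0.77 in G-CSF cells (limma adjusted p = 0.328 in 4T1-TB and 0.654 in G-CSF cells). Another Oas1g probe, ILMN_2628822, read 6.99 and 6.84 in 4T1-TB cells and 7.03 and 7.28 in G-CSF cells, against 8.43 and 8.51 in WT cells. It stood at least 2.68-fold lower in 4T1-TB cells (limma adjusted p = 0.00185) and changed by -1.31 ± 0.10 in G-CSF cells (SE, limma adjusted p = 0.00302), and both calls held without any one array. Oas1a and Oas1g are near-identical paralogs, so which copy such a probe reads is uncertain, and Oas1a itself was detected on no array. Oasl1, which restrains Irf7 translation in mouse, read 8.30 and 8.53 in 4T1-TB cells and 8.78 and 8.57 in G-CSF cells, against 8.51 and 8.42 in WT cells, without a call on that probe. Its probe ILMN_2717366, detected on all 6 arrays, changed by -0.93 in 4T1-TB cells and -0.71 in G-CSF cells. Neither change was called (limma adjusted p = 0.0639 in 4T1-TB and 0.161 in G-CSF cells). A dim Oasl1 probe seen only on the WT arrays stood at least 1.28-fold lower in 4T1-TB cells and at least 1.29-fold lower in G-CSF cells (limma adjusted p = 0.00752 in 4T1-TB and 0.0156 in G-CSF cells). The 4T1-TB call was lost without either 4T1-TB array or the second WT array, and the G-CSF call without either 4T1-TB or either WT array (adjusted p up to 0.0723 in 4T1-TB and 0.0967 in G-CSF cells).

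Among sensors and RNA-handling genes, Eif2ak2 rose in both groups, and it was the strongest rise of the list. Eif2ak2 encodes PKR, the kinase that halts translation when it binds double-stranded RNA. It read 8.97 and 9.13 in 4T1-TB cells and 8.96 and 8.87 in G-CSF cells, against 7.78 and 7.68 in WT cells. The rise was 1.33 ± 0.08 in 4T1-TB cells and 1.19 ± 0.08 in G-CSF cells (SE, limma adjusted p = 0.00137 in 4T1-TB and 0.00182 in G-CSF cells), and both calls held without any one array. Trim25, the ubiquitin ligase that activates RIG-I, read 9.72 and 9.36 in 4T1-TB cells and 9.22 and 9.80 in G-CSF cells, against 8.91 and 8.39 in WT cells. The groups did not overlap, but changes of 0.89 in 4T1-TB cells and 0.86 in G-CSF cells missed the threshold (limma adjusted p = 0.175 in 4T1-TB and 0.208 in G-CSF cells). Samhd1, which depletes deoxynucleotides, read 10.39 and 10.51 in 4T1-TB cells and 11.15 and 10.38 in G-CSF cells, against 9.74 and 10.16 in WT cells (limma adjusted p = 0.532 in 4T1-TB and 0.25 in G-CSF cells).

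Dhx58, the helicase LGP2, read 7.38 and 7.38 in 4T1-TB cells and 7.10 and 8.90 in G-CSF cells, against 8.50 and 8.67 in WT cells. Its second G-CSF array lay above both WT arrays, and changes of -1.21 in 4T1-TB cells and -0.59 in G-CSF cells missed the threshold (limma adjusted p = 0.425 in 4T1-TB and 0.772 in G-CSF cells). A dimmer Dhx58 probe stood at least 1.37-fold lower in 4T1-TB cells (limma adjusted p = 0.0283), a call lost without either 4T1-TB or either WT array (adjusted p up to 0.197). Adar, the RNA-editing deaminase, had 4 detected probes, and they pointed both ways. A probe that neither group detected stood at least 1.49-fold lower in 4T1-TB cells and at least 1.51-fold lower in G-CSF cells (limma adjusted p = 0.0138 in 4T1-TB and 0.0166 in G-CSF cells), and both calls were lost without either 4T1-TB array (adjusted p up to 0.11 in 4T1-TB and 0.0601 in G-CSF cells). A probe detected in both groups and on no WT array exceeded WT at least 1.06-fold for 4T1-TB and at least 1.11-fold for G-CSF, without a call (limma adjusted p = 0.29 in 4T1-TB and 0.168 in G-CSF cells). The brightest Adar probe read 7.25 and 7.00 in 4T1-TB cells and 7.09 and 7.83 in G-CSF cells, against 7.77 and 7.56 in WT cells, without a call. Ifih1, the sensor MDA5, was detected on no array.

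**Figure D3:**
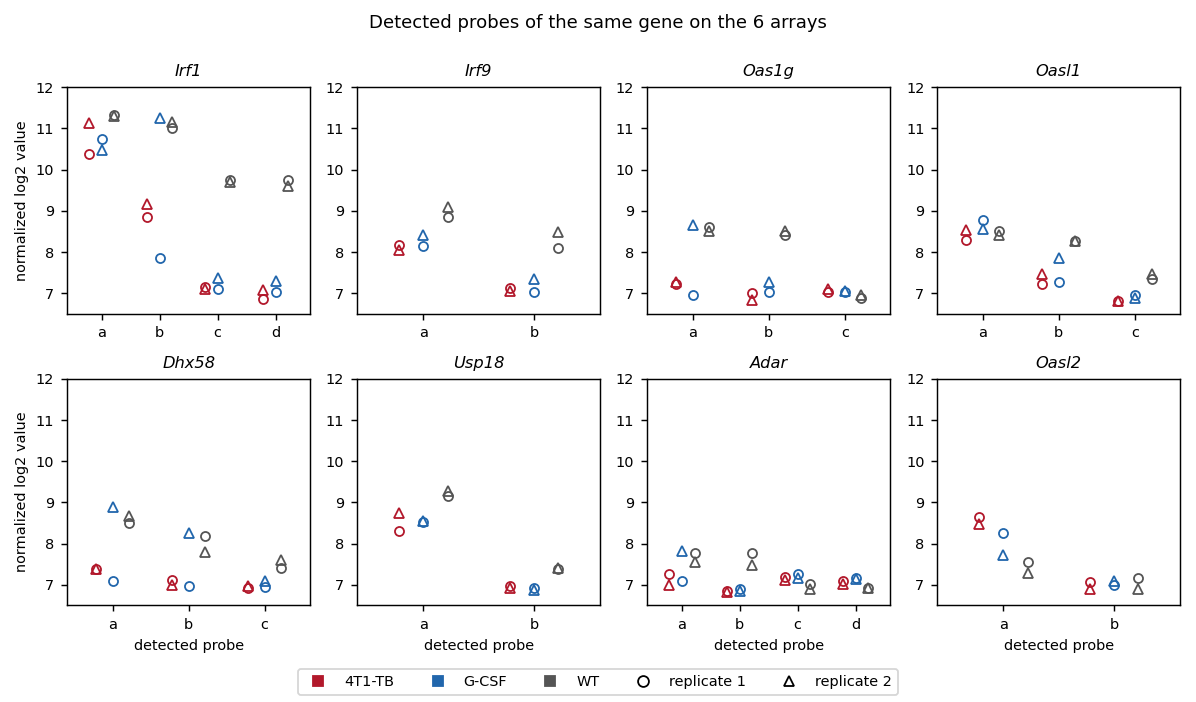
Normalized log2 value of every detected probe of 8 members on the 6 arrays (a is the brightest probe; colour gives the group, circle replicate 1 and triangle replicate 2). Probes of Irf1, Oas1g, Dhx58 and Adar differ in how far 4T1-TB and G-CSF lie from WT. The G-CSF replicate 2 triangle sits slightly above both WT points for Irf1 probe b, Oas1g probe a and Dhx58 probes a and b.

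Of 16 members with at least 2 detected probes, the probes of 12 differed in sign or in call against WT, and those of 8 differed in call (Irf1, Usp18, Oas1g, Oasl1, Oasl2, Dhx58, Adar and Dtx3l). Those of Gbp3, Irgm1, Parp14 and Sp100 differed in sign only, with no probe called. How often the probes of other genes differ was not computed, so this is not shown to be particular to the list. Counting a member once if any of its probes passed, 12 members were lower and 3 higher in 4T1-TB cells, and 10 were lower and 2 higher in G-CSF cells. The share of all genes with any called probe was not computed, so these member counts have no background. A gene with several probes has more chances to be counted, and 25 members have several. Over all 45281 probes, 2.56% were called lower and 2.93% higher in 4T1-TB cells, and 2.31% and 2.22% in G-CSF cells. Of the 89 member probes, 14 were called lower and 3 higher in 4T1-TB cells, and 12 and 2 in G-CSF cells.

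The GTPases that interferon gamma induces against intracellular parasites moved in different directions. Gbp2, a guanylate-binding protein, read 11.65 and 11.57 in 4T1-TB cells and 11.54 and 11.92 in G-CSF cells, against 10.85 and 11.06 in WT cells. It rose by 0.77 ± 0.14 in G-CSF cells (SE, limma adjusted p = 0.0439) and 0.66 ± 0.14 in 4T1-TB cells was not called (limma adjusted p = 0.0659). The G-CSF call was lost without either 4T1-TB array and without either WT array (adjusted p up to 0.251). Igtp, an immunity-related GTPase also called Irgm3, read 8.08 and 8.20 in 4T1-TB cells and 7.81 and 8.99 in G-CSF cells, against 9.49 and 9.76 in WT cells. The groups did not overlap with WT, yet the changes of -1.49 in 4T1-TB cells and -1.22 in G-CSF cells did not pass the adjusted test (limma adjusted p = 0.103 in 4T1-TB and 0.198 in G-CSF cells), although the 4T1-TB change met the 2-fold criterion. The G-CSF change was -0.63 without the first G-CSF array and -1.81 without the second, each from 1 G-CSF array that gives no spread. The detected probes of Gbp3 ranged from -0.27 to 0.20 in 4T1-TB cells and from -0.31 to 0.11 in G-CSF cells. Those of Irgm1 ranged from -0.06 to 0.28 in 4T1-TB cells and from -0.07 to -0.03 in G-CSF cells, and Iigp1 was detected on no array.

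Dtx3l, the ubiquitin ligase partner of Parp9, fell in both groups. It read 7.07 and 7.19 in 4T1-TB cells and 7.06 and 7.59 in G-CSF cells, against 8.69 and 8.63 in WT cells. The change was -1.53 ± 0.17 in 4T1-TB cells and -1.34 ± 0.17 in G-CSF cells (SE, limma adjusted p = 0.00828 in 4T1-TB and 0.0133 in G-CSF cells). The 4T1-TB call was lost without either 4T1-TB or either WT array (adjusted p up to 0.0862), and the G-CSF call without either WT array (adjusted p up to 0.12). A second Dtx3l probe near the detection limit gave 0.12 in 4T1-TB cells and -0.01 in G-CSF cells, without a call. Parp14, of the same ADP-ribosyltransferase family as Parp9, read 9.58 and 9.12 in 4T1-TB cells and 9.21 and 9.70 in G-CSF cells, against 9.86 and 9.90 in WT cells (limma adjusted p = 0.332 in 4T1-TB and 0.491 in G-CSF cells), and Parp9 itself was detected on no array.

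Of the other interferon-induced genes, Ifi35 fell in 4T1-TB cells. It read 6.90 and 6.96 in 4T1-TB cells and 6.86 and 7.27 in G-CSF cells, against 7.95 and 7.67 in WT cells. Neither 4T1-TB array detected it, so it was at least 1.7-fold lower there (limma adjusted p = 0.0375), and a G-CSF change of -0.75 was not called (limma adjusted p = 0.072). The call was lost without either 4T1-TB or either WT array (adjusted p up to 0.241), and with the replicate number as a block (adjusted p = 0.0742). The chemokine Cxcl10, Xaf1 and Tor3a were detected on at most 1 array of a group, and Zbp1, Sp100 and Rtp4 differed from WT by 0.24 at most on their brightest probe, without a call. Mx2 was detected on every 4T1-TB and G-CSF array and on no WT array, but its values lay close to the detection limit. It read 7.07 and 7.08 in 4T1-TB cells and 7.07 and 7.11 in G-CSF cells, against 6.98 and 7.05 in WT cells. Its changes of 0.06 in 4T1-TB cells and 0.07 in G-CSF cells were not called (limma adjusted p = 0.793 in 4T1-TB and 0.729 in G-CSF cells). Mx1 was detected on no array.

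**Figure D4:**
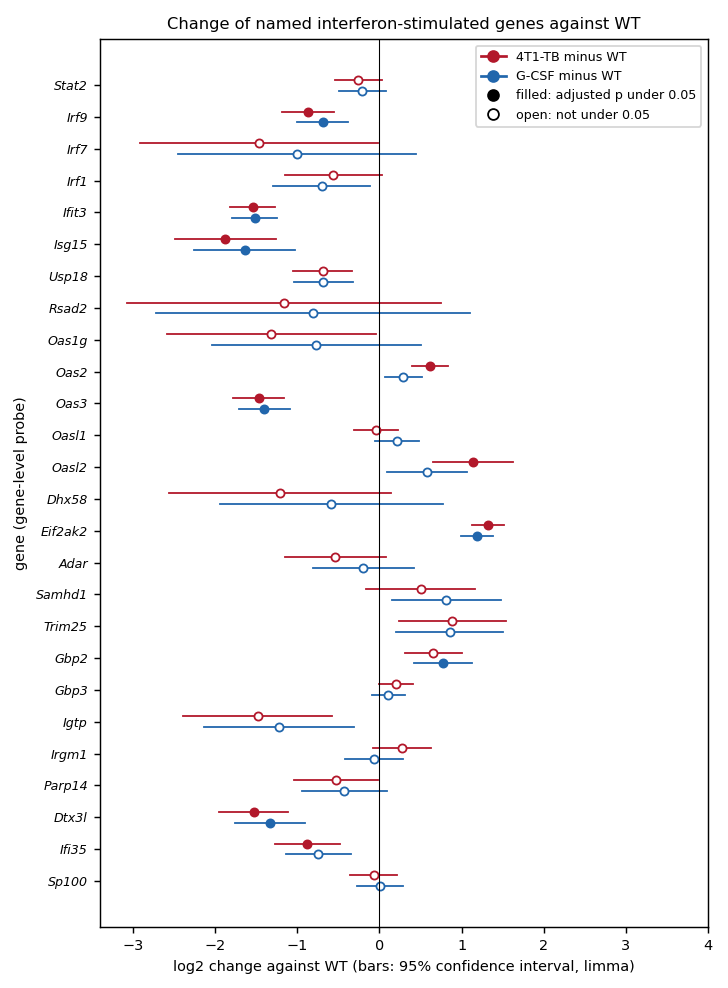
Log2 change against WT (x axis) of 26 named members on their brightest probe, with 95% confidence intervals from limma, for 4T1-TB (red, upper) and G-CSF (blue, lower); filled points passed an adjusted p of 0.05. The intervals of Irf7, Rsad2, Oas1g and Dhx58 are wide, whereas those of Ifit3, Oas3 and Eif2ak2 are short and lie clear of 0 in both comparisons.

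Replicates of the G-CSF group were further apart than those of the other groups. The 2 G-CSF arrays differed by over 1 log2 unit for 5 detected members (Irf7, Rsad2, Oas1g, Dhx58 and Igtp), beside 7.61% of all detected genes. The 4T1-TB arrays differed by that much for Rsad2 only, beside 0.899% of detected genes, and the WT arrays for no member and 0% of genes. Relative to the WT mean, the first G-CSF array had 8 members at least 1 log2 unit lower and the second had 5, against 8 and 9 on the 4T1-TB arrays. Over all detected genes the same gap was met by 8.95% and 5.3% on these G-CSF arrays, against 7.91% and 8.14% on the 4T1-TB arrays, so that the second G-CSF array had fewer such genes overall too. The first G-CSF array is also the one with high erythroid genes, and the part of those cells in this gap was not tested. Without the first array of 4T1-TB and of G-CSF, an alternative chosen after seeing the data, 15 members were called lower and 5 higher in 4T1-TB cells, beside 5.69% and 11% of all genes. In G-CSF cells 9 were lower and 4 higher, beside 4.2% and 8.18%. A group left with 1 array adds nothing to the spread that limma estimates. Several members that missed the threshold on all 6 arrays passed it with fewer. Without either G-CSF array, Irf7, Usp18, Oas1g, Dhx58, Adar and Igtp were also called lower in 4T1-TB cells and Trim25 and Gbp2 higher, with limma adjusted p from 4.52e-05 to 0.0284. Without the second G-CSF array, Irf7, Oas1g, Dhx58, Adar, Igtp and Ifi35 were also lower in G-CSF cells and Oasl2 and Samhd1 higher, with limma adjusted p from 4.81e-05 to 0.0463.

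Between cells of 4T1-TB and G-CSF mice no member passed the adjusted test of limma, and 0% of all genes did. The 2-fold criterion called 0 members and 0.147% of all genes. At an unadjusted p under 0.05 in limma, 3 members stood out (Ifit2, Oas2 and Oasl2), beside 4.08% of all genes. Without the first G-CSF array the difference was -1.43 for Irf7, -0.64 for Isg15, -1.40 for Oas1g, -1.52 for Dhx58, -0.85 for Igtp and 0.83 for Oasl2. Without the first array of both groups it was -1.39 for Irf7, -0.64 for Isg15, -1.38 for Oas1g, -1.52 for Dhx58 and -0.79 for Igtp. A group with 1 array gives no spread, so these are sizes only. On all 6 arrays the difference was 0.21 ± 0.06 for Ifit2, 0.32 ± 0.09 for Oas2 and 0.56 ± 0.19 for Oasl2 (SE, limma adjusted p = 1 for each). The largest gaps were those of Dhx58 at -0.62, Oasl2 at 0.56, Oas1g at -0.55 and Irf7 at -0.46, and for Dhx58, Oas1g and Irf7 the groups overlapped. The median 95% interval of a member reached 0.33 to either side of its value.

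Upstream of the list, receptor genes were among those that changed. Of 21 genes for interferons, receptors and signaling, 19 were measured, with 1 higher and 3 lower in 4T1-TB cells and 1 higher and 2 lower in G-CSF cells. Over all 19057 genes the shares were 5.41% higher and 3.17% lower for 4T1-TB, and 4.12% higher and 2.85% lower for G-CSF. Whether this list exceeds that background was not tested. Ifngr2, a chain of the interferon-gamma receptor, changed by -1.34 ± 0.25 in 4T1-TB cells and -1.70 ± 0.25 in G-CSF cells (SE, limma adjusted p = 0.0407 in 4T1-TB and 0.021 in G-CSF cells). A dimmer Ifngr2 probe, ILMN_2592709, detected on 5 arrays, stood at -0.48 in 4T1-TB cells and -0.45 in G-CSF cells. Neither change of that probe was called (limma adjusted p = 0.134 in 4T1-TB and 0.17 in G-CSF cells). Ifngr1, the other chain, stood at least 3.25-fold lower in 4T1-TB cells (limma adjusted p = 0.046), and its change of -1.29 in G-CSF cells, with arrays at 6.97 and 7.95, was not called (limma adjusted p = 0.155). Irf5 fell by 1.17 in 4T1-TB cells and by 1.02 in G-CSF cells on the log2 scale (limma adjusted p = 0.00273 in 4T1-TB and 0.00437 in G-CSF cells). Ifnlr1, the interferon-lambda receptor chain, rose by 1.77 ± 0.13 in 4T1-TB cells and 1.48 ± 0.13 in G-CSF cells (SE, limma adjusted p = 0.00233 in 4T1-TB and 0.0043 in G-CSF cells). That is its brightest probe, and another detected on all 6 arrays, ILMN_3009880, stood at -0.95 in 4T1-TB cells and -0.69 in G-CSF cells, without a call (limma adjusted p = 0.471 in 4T1-TB and 0.652 in G-CSF cells). Ifnar1 was detected on no array.

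Of 11 measured sensors and adaptors 1 rose in each group, Tlr4, the receptor for bacterial lipopolysaccharide, by 1.11 in 4T1-TB cells and 1.02 in G-CSF cells (limma adjusted p = 0.0201 in 4T1-TB and 0.029 in G-CSF cells). A dimmer Tlr4 probe, ILMN_2752966, was called the other way, at -0.88 in 4T1-TB cells, and at -0.69 was not called in G-CSF cells (limma adjusted p = 0.0485 in 4T1-TB and 0.116 in G-CSF cells). None of 8 measured negative regulators passed in limma, and 2 had an unadjusted p under 0.05 in each comparison with WT. The share of all genes under that unadjusted p is not given for these comparisons, so the 2 have no background. Of 39 measured interferon-induced genes outside the list, 2 were higher and 4 lower in 4T1-TB cells, and 1 was higher and 2 lower in G-CSF cells. The background for these genes and for the sensors is 5.41% higher and 3.17% lower for 4T1-TB. For G-CSF it is 4.12% higher and 2.85% lower, and an excess over either was not tested. Psmb8, an immunoproteasome subunit, read 6.98 and 7.01 in 4T1-TB cells and 6.91 and 7.04 in G-CSF cells, against 10.40 and 10.03 in WT cells. It stood at least 9-fold lower in 4T1-TB cells and changed by -3.24 in G-CSF cells (limma adjusted p = 0.000582 in 4T1-TB and 0.000593 in G-CSF cells). Plscr1, a phospholipid scramblase, was not detected in WT cells and was higher by at least 3.83-fold in 4T1-TB cells and by at least 2.76-fold in G-CSF cells (limma adjusted p = 0.000714 in 4T1-TB and 0.00133 in G-CSF cells). A dimmer Plscr1 probe, ILMN_2701271, detected on all 6 arrays, stood at -1.29 in 4T1-TB cells and -0.29 in G-CSF cells, without a call (limma adjusted p = 0.508 in 4T1-TB and 0.927 in G-CSF cells).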

How the data were processed

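Splenic CD11b+Gr-1high cells of 3 groups were profiled on 6 arrays. Per the paper's methods the authors exported intensity values with GenomeStudio after a background subtraction, although no deposited intensity lies at or below 0. The authors deposited log2 values after quantile normalization, and a detection p-value for each intensity, which served here to count detected arrays, to set bounds and in 1 alternative normalization. Quantile normalization of the intensities here gave values within 4.99e-09 of the deposited ones. Array annotation named 1 gene for 34885 of 45281 probes. Group means were fitted in limma 3.58.1 (R 4.3.3) with 3 contrasts on all probes and arrays, with Benjamini-Hochberg adjustment over all probes and 0.05 as threshold. Where both arrays of a group were not detected, the change is a bound, computed after raising each undetected value to the dimmest detected probe of its array. The lists, members and rules for named genes were chosen with earlier results of these data known. Named members are those with a called probe against WT, up to 6 others with the largest change, Stat2, Irf9, Irf7 and Irf1, those whose probes disagree, and the 4 largest between 4T1-TB and G-CSF. From 7421 to 10036 probes were detected per array, and 2 arrays per group limit the precision. The code was tested on simulated data. The detection table leaves 1 column of each treated group unnumbered, which was used for its group only. Alternatives are in the closing section.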

Additional observations from a re-analysis of the deposited data

How the results depend on the processing

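Counts of calls moved with most settings, and depth on an array means signal over background, which left 9 of the 41 measured members without a detected brightest probe. Centring on array medians gave 0 calls, higher or lower, in both comparisons with WT, and member medians of 0.12 in 4T1-TB cells and 0.26 in G-CSF cells against WT and -0.16 between 4T1-TB and G-CSF. It turned the sign for 4T1-TB against WT of Irf9 (0.14), Irf1 (0.69), Usp18 (0.43), Rsad2 (0.089), Oasl1 (0.83), Parp14 (0.76) and Sp100 (0.073). For G-CSF against WT it did so for Irf9 (0.48), Irf1 (0.79), Usp18 (0.63), Rsad2 (0.68), Oas1g (0.035), Dhx58 (0.26), Adar (0.17), Igtp (0.0398), Irgm1 (1.46) and Parp14 (1.10), and between 4T1-TB and G-CSF for Irf1 (-0.10), Eif2ak2 (-0.0697) and Trim25 (-0.21). The cause was not tested. Background correction with neqc called 1 member higher and 3 lower in each comparison with WT, with member medians of -0.60 in 4T1-TB cells and -0.66 in G-CSF cells. Fitting only the 4 arrays compared called 5 higher and 12 lower in 4T1-TB cells and 1 higher in G-CSF cells, and a trended prior called 1 higher in G-CSF cells, as did the 2-fold criterion. The mean over detected probes called 11 lower in 4T1-TB cells and 8 lower in G-CSF cells. It turned Gbp3 in 4T1-TB cells (-0.033), Oasl1 (-0.32), Gbp3 (-0.10) and Sp100 (-0.10) in G-CSF cells, and between 4T1-TB and G-CSF Irf1 (-0.17) and Usp18 (0.017). Apart from the 2-fold criterion, the share of all genes called under the settings of this paragraph is not given. Whether a setting moved the members or all genes alike cannot be told from these counts.

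When arrays were left out 1 at a time, the remaining array of a group was assumed to vary like the other groups. Counts of calls moved with the array left out, as given above for the comparisons with WT. Member medians ranged from -0.33 to -0.26 in 4T1-TB cells, from -0.29 to -0.10 in G-CSF cells and from -0.16 to 0.072 between them. Signs turned in 4T1-TB cells for Oasl1 (-0.16 to 0.073) and Sp100 (-0.21 to 0.066). They turned in G-CSF cells for Rsad2 (-1.81 to 0.18), Oas1g (-1.62 to 0.078), Dhx58 (-1.49 to 0.31), Adar (-0.57 to 0.17), Irgm1 (-0.25 to 0.11) and Sp100 (-0.13 to 0.15). Between 4T1-TB and G-CSF, where no member was called on all 6 arrays, they turned for Stat2 (-0.19 to 0.094), Irf7 (-1.43 to 0.50), Irf1 (-0.22 to 0.51), Ifit3 (-0.15 to 0.098), Isg15 (-0.64 to 0.16), Usp18 (-0.23 to 0.21), Rsad2 (-1.34 to 0.64), Oas1g (-1.40 to 0.30), Oas3 (-0.23 to 0.093), Dhx58 (-1.52 to 0.28), Adar (-0.71 to 0.031), Samhd1 (-0.70 to 0.071), Trim25 (-0.26 to 0.32), Gbp2 (-0.31 to 0.072), Igtp (-0.85 to 0.32), Parp14 (-0.34 to 0.14), Dtx3l (-0.46 to 0.066), Ifi35 (-0.34 to 0.075) and Sp100 (-0.18 to 0.020). Leaving out the first array of both 4T1-TB and G-CSF, chosen after seeing the data, gave 5 higher and 15 lower in 4T1-TB cells, 4 higher and 9 lower in G-CSF cells with a median of -0.10, and 1 higher and 7 lower between them. With 1 array left in 4T1-TB and 1 in G-CSF, these counts rest on the spread of the WT arrays alone. Between 4T1-TB and G-CSF, 2.72% of all genes were higher and 2.82% lower in this setting. No difference between these groups is read from the counts. This setting turned Oasl1 in 4T1-TB cells (0.073), and Oas1g (0.078), Dhx58 (0.31) and Adar (0.17) in G-CSF cells. Between 4T1-TB and G-CSF it turned Usp18 (0.20), Samhd1 (0.13) and Trim25 (-0.44). Adar (-0.84), Gbp2 (-0.35) and Parp14 (-0.58) kept their sign between them.

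With the replicate number as a block, 3 members were higher and 5 lower in 4T1-TB cells and 2 higher and 4 lower in G-CSF cells, and the calls of Ifi35 in 4T1-TB cells (limma adjusted p = 0.0742) and Irf9 in G-CSF cells (0.0592) were lost. The share of all genes called under the block is not given, so these counts have no background. The replicate number is not stated to mark an experiment. Deviations of same-numbered arrays correlated at 0.243 between 4T1-TB and G-CSF, -0.024 between 4T1-TB and WT and 0.0234 between G-CSF and WT.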
